A study of Mus musculus with 6 samples.

Results

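Mesothelial cells were picked out of a pooled single-cell RNA table of sorted mouse lung cells by the RNA of 8 genes. A cell barcode was kept when it had at least 500 genes detected and at most 10% of its unique molecular identifiers (UMIs, which count captured RNA molecules) from mitochondrial genes. A kept barcode was called mesothelial when at least 3 of Wt1, Msln, Upk3b, Lrrn4, Krt19, Gpm6a, Rspo1 and Upk1b had a UMI and neither Ptprc, the leukocyte antigen CD45, nor Epcam, the epithelial adhesion molecule, had any. This rule found 92 cells among 9994 kept barcodes, a share of 0.921% (95% Clopper-Pearson interval 0.743 to 1.13, counting error only). They held 521750 UMIs, with a median of 5060 UMIs (range 1117 to 31034) and 2098.5 genes per cell. The comparison classes were 2584 mesenchymal cells, which had at least 3 UMIs of the fibrillar collagen genes Col1a2 and Col3a1 together and were not mesothelial, and 595 epithelial cells, which had at least 1 Epcam UMI.

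The mice carried a GFP reporter for smooth muscle actin (SMA-GFP), a Cre recombinase named for the lung factor Tbx4 (Tbx4cre), and a tdTomato gene at the Rosa locus that Cre switches on for good (RosaTdTomato). The 6 samples were the SMA+Tm+, SMA-Tm+ and SMA-Tm- sorting gates of bleomycin-treated mice at day 21 and of normal mice at day 0, with 1 sample for each gate and day. All 6 gates excluded cells with surface Epcam, CD31 (endothelial) or CD45, so the Epcam- and Ptprc-bearing barcodes passed a sort meant to remove them. The mice's age, sex and number were not given in the sources used here, and Tbx4cre marks descendants of Tbx4-expressing cells, not cells that use Tbx4 at the time of the sort.

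The deposited table joins all 6 libraries, and its barcodes end in suffixes 1 to 6. Nothing in the sources used here ties a suffix to a gate or a day, so no value below is given for bleomycin or for a gate, and no test between conditions was possible. The 6 suffixes held between 2778071 and 12427810 UMIs, and 55 barcode sequences occurred in more than 1 suffix, none of them in a mesothelial cell. Mesothelial cells numbered 10, 12, 5, 58, 3 and 4 in suffixes 1 to 6, which is 0.756%, 0.603%, 0.361%, 1.92%, 0.190% and 0.579% of the kept barcodes there. Suffix 4 thus held 63.0% of them, and values within a suffix are given below for suffixes 1, 2 and 4, which had at least 10. Y-linked RNA was found in mesothelial cells of suffixes 1 to 3 (7 of 10, 4 of 12 and 2 of 5 cells), whereas Xist was found in 56 of 58, 3 of 3 and 4 of 4 cells of suffixes 4 to 6 and in 1 cell of suffix 1. Mesenchymal cells were spread otherwise, with 1874 of 2584 in suffix 4, 556 in suffix 1 and 46 in suffix 2.

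The mesothelium is the sheet of flat cells that covers the lung surface as the visceral pleura. It arises from the coelomic lining, and its cells carry features of both epithelium (keratins, tight junctions, microvilli) and mesenchyme (vimentin, matrix genes). They release lubricants into the pleural fluid, and during lung development they signal to the mesenchyme beneath through FGF and retinoic acid.

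The rule genes themselves are a description, since they chose the cells. Levels below are UMIs summed over a class per 1000000 UMIs of that class (CPM), and since a UMI counts a molecule at its 3′ end no gene length enters. Upk3b, a uroplakin of the cell surface, stood at 1629 CPM and was seen in 96.7% of mesothelial cells, against 8.30 CPM in mesenchymal cells. Gpm6a, a membrane glycoprotein, stood at 1039 CPM, the Wnt agonist Rspo1 at 755 CPM and the keratin Krt19 at 512 CPM. Lrrn4 followed at 494 CPM, the transcription factor Wt1 at 468 CPM, mesothelin (Msln) at 355 CPM and Upk1b at 297 CPM. Msln had a UMI in 52.2% of the cells, the fewest of the 8 genes, and Lrrn4 in 76.1%. Msln was at 475, 590 and 176 CPM in suffixes 1, 2 and 4, and Wt1 at 689, 179 and 487 CPM, so the order of the suffixes differed between rule genes.

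**Figure D1:**
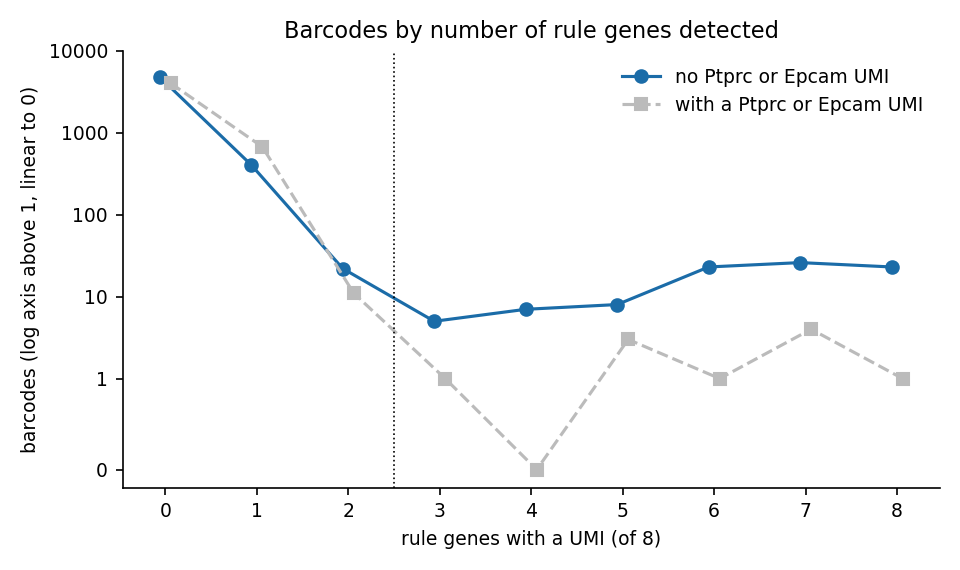
Kept barcodes by the number of the 8 rule genes with a UMI (x axis), on a y axis that is logarithmic above 1, for barcodes without (circles) and with (squares) a Ptprc or Epcam UMI; the dotted line is the threshold. Without Ptprc or Epcam the number falls from 4774 barcodes at 0 genes to 5 at 3 genes and rises again to 26 at 7 genes.

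Barcodes free of Ptprc and Epcam were fewest at 3 to 5 rule genes. Of them, 22 had 2 rule genes, 5 had 3, 7 had 4, 8 had 5, 23 had 6, 26 had 7 and 23 had all 8. These counts come from the rule's own genes, and depth differed along them (median 2011 UMIs at 3 genes and 6950 at 8). They therefore do not test where the threshold should lie. The 5 cells just inside the threshold, with a median of 2011 UMIs, held Upk3b at 984 CPM, Nkain4 at 358 CPM and Igfbp5 at 2595 CPM, and no Krt18 UMI. The 22 barcodes just outside it, with a median of 3365 UMIs, held Upk3b at 125 CPM, Nkain4 at 22.7 CPM, Igfbp5 at 261 CPM and the surfactant gene Sftpc at 9165 CPM. The 807 Sftpc UMIs lay in only 3 of these 22 barcodes, while 12 of the 22 had 3 or more Col1a2 and Col3a1 UMIs. Another 10 barcodes had 3 or more rule genes and also a UMI of Ptprc (8 barcodes) or Epcam (2 barcodes), and were left out by the rule.

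Of the 6 markers that go with the label, 5 are rule genes. The remaining marker, the B-cell chemokine Cxcl13, went against the label as a general marker of these cells: it had 142 UMIs in 10 of 92 cells, of which 114 (80.3%) lay in 1 cell and 18 in another. Its level of 272 CPM, against 52.1 CPM in mesenchymal cells, therefore rests mostly on 1 cell, and it had no UMI in suffix 1. Such concentration in 1 cell was rare: of 1602 genes with 50 or more mesothelial UMIs, 4 had over 50% of them in 1 cell, among them the acute phase gene Saa3, with all 140 of its UMIs in 1 cell, and the protease inhibitor Timp1, with 61 of 82.

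Markers of other cell types were measured in the same cells. Immune markers summed to 481 CPM in mesothelial cells, 910 CPM in mesenchymal cells and 15748 CPM in barcodes of no class; in suffixes 1, 2 and 4 they summed to 143, 2128 and 311 CPM, and Cd3d and Nkg7 were at 0. Ptprc is on the immune list, and the rule holds it at 0 in mesothelial cells. It had a UMI in 93 mesenchymal cells and 4023 barcodes of no class, so the immune sums are partly set by the rule. Epithelial markers summed to 59.4 CPM, with 12 of 17 at 0. Cdh1 and Nkx2-1 were among them, and so was Epcam, which the rule also holds at 0. Endothelial markers summed to 466 CPM, against 146 CPM in mesenchymal cells and 1023 CPM in barcodes of no class, and none of the 11 was at 0. A list of 30 other mesothelial genes, which the rule did not use, is described next.

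Relative to mesenchymal cells, mesothelial cells carried keratin, claudin, mucin and surface membrane RNA that mesenchymal cells almost lacked. A difference was called at 2-fold, and 6449 genes with a mean of at least 20 CPM over both classes were compared. Of these, 672 (10.4%) were higher in mesothelial cells, 737 (11.4%) were lower, and the median log2 ratio over all of them was 0.03. With the 76 collagen-bearing mesothelial cells left out, the higher share of these calls moved from 47.7% to 64.8%. The 16 cells left held 56451 UMIs, and a gene at 0 UMIs there entered at 3 UMIs, which makes lower calls harder to reach. Since each class is a sum over cells of 1 pooled table there is no replicate, and the intervals given with ratios are 95% intervals of counting error only. Of the 30 other mesothelial genes 24 were measured, the other 6 being under the minimum; all 24 were higher, and their median log2 ratio was 4.44. A gene abundant only in mesothelial cells passes the minimum through them alone and then has to differ, so this count is a description. Within suffixes 1, 2 and 4 the medians were 2.21 over 9 genes, 2.74 over 16 genes and 3.23 over 24 genes. There any level under 3 UMIs of the smaller class total was raised to that common floor. The floor is higher in a suffix with fewer UMIs and limits large ratios, so these medians are not like for like between suffixes.

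Keratins of simple epithelia were among the largest ratios. Krt18 had 127 UMIs, 243 CPM (203 to 290), in 52.2% of mesothelial cells, against 0.807 CPM in mesenchymal cells, a log2 ratio of 8.24 (7.15 to 9.58). It stood at 190, 107 and 264 CPM in suffixes 1, 2 and 4, so every one of these suffixes held it far above the mesenchymal level. Krt8, its filament partner, stood at 88.2 CPM (log2 ratio 7.26, 5.93 to 8.95) and Krt7 at 161 CPM (log2 ratio 7.13, 6.18 to 8.24). Krt10, a keratin of stratified skin and the fourth of the measured keratins, stood at 23.0 CPM against 42.7 CPM. Krt8 and Krt18 lie close together on chromosome 15 of the mouse genome GRCm38, Krt8 (ENSMUSG00000049382) at chr15:101996698-102004482 on the minus strand and Krt18 (ENSMUSG00000023043) at chr15:102028180-102032027 on the plus strand.

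Depth alone changes how many cells show a gene, so each cell was also thinned to 1000 UMIs, which left out no mesothelial cell, 54 mesenchymal cells, 4 of the 121 epithelial cells without Ptprc and 293 barcodes of no class. After thinning, Krt18 was seen in 23.9% of mesothelial cells (52.2% before), 0.04% of mesenchymal cells (0.23% before), 10.3% of Ptprc-free epithelial cells (24.8% before) and 0.17% of barcodes of no class (0.59% before). Nkain4, a membrane protein that partners the sodium pump, was seen in 53.3% of thinned mesothelial cells (87.0% before), 3.87% of mesenchymal cells (10.8% before) and 0.19% of barcodes of no class (0.61% before). Both mesothelial shares lay above those of the barcodes of no class (median depth before thinning 2466 UMIs, against 5060 in mesothelial cells). Those barcodes passed the same cell filter, and 684 of 6735 had a Col1a2 or Col3a1 UMI. Their shares are therefore not a measure of free RNA alone.

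**Figure D2:**
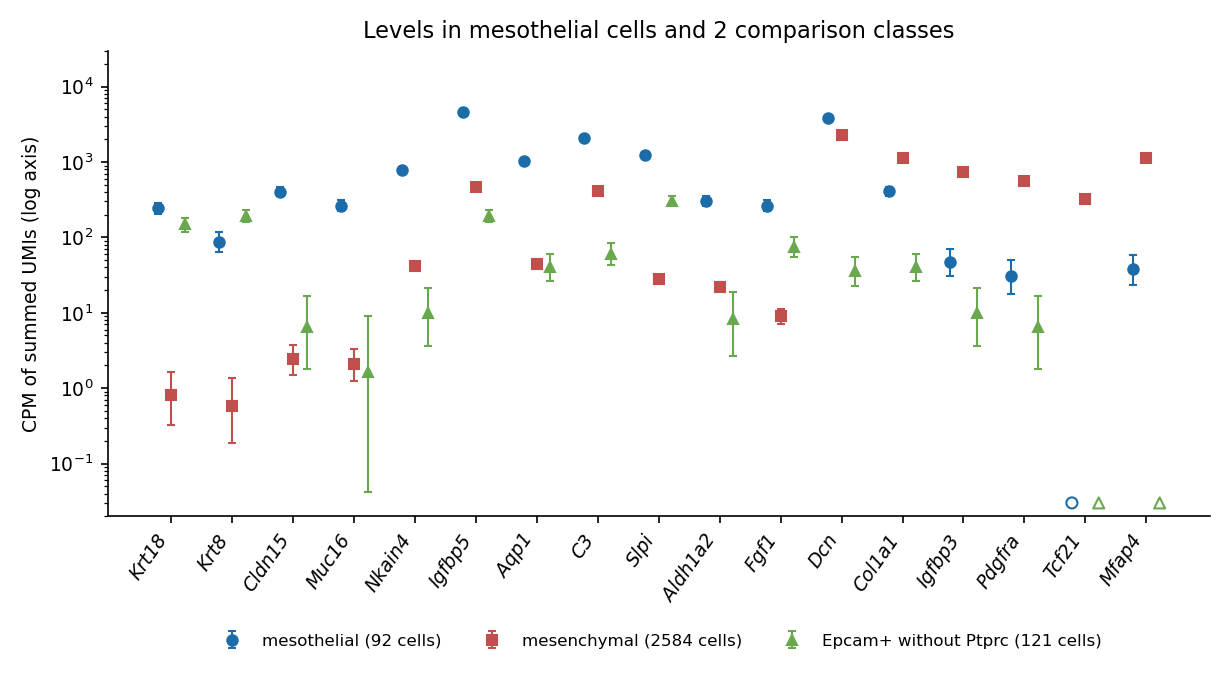
CPM of summed UMIs (y axis, logarithmic) for 17 genes (x axis) in mesothelial cells, mesenchymal cells and Epcam+ cells without Ptprc; bars are 95% Poisson intervals of counting error and open symbols at the bottom mark 0 UMIs. Krt18, Krt8, Cldn15 and Muc16 are far above mesenchymal cells (Krt18 243 against 0.807 CPM), while Dcn is high in both (3866 and 2286 CPM) and Tcf21 is at 0 UMIs in mesothelial cells.

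Junction genes followed the keratins. Of 31 junction genes 14 were measured, of which 8 were higher, none was lower at 2-fold and the median log2 ratio was 1.31. Cldn15, a tight junction claudin that forms cation pores, stood at 402 CPM (350 to 461) in 78.3% of cells against 2.42 CPM (log2 ratio 7.38, 6.73 to 8.10). Its level was even across suffixes, at 380, 447 and 399 CPM in suffixes 1, 2 and 4. Cldn10, a further pore-forming claudin, stood at 167 against 3.23 CPM, cingulin (Cgn), a tight junction plaque protein, at 47.9 against 0.461 CPM, and Cldn3 at 44.1 against 1.04 CPM. Cxadr, a junctional adhesion receptor, stood at 169 CPM (log2 ratio 6.82, 5.97 to 7.78), and F11r, junctional adhesion molecule A, at 102 against 6.68 CPM. Cdh1 (E-cadherin), of the epithelial adherens junction, had 0 UMIs (which allows up to 3 in the class) against 203 CPM in Ptprc-free epithelial cells, while the mesenchymal cadherin Cdh11 was alike in both classes, at 238 and 221 CPM. Mpzl2, an immunoglobulin-fold adhesion protein, had 39 mesothelial UMIs and none in mesenchymal cells, which makes it at least 216-fold higher with the mesenchymal class set to 3 UMIs.

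Some genes of the apical surface were high and others were not. Of 14 genes of microvilli and their links to the cell cortex 10 were measured, with 5 higher, 1 lower and a median log2 ratio of 0.99. Ezrin (Ezr), which ties membrane to actin, stood at 466 against 38.3 CPM (log2 ratio 3.61, 3.36 to 3.85), and its scaffold partner Slc9a3r1 at 462 against 10.0 CPM (5.53, 5.17 to 5.90). Espn, an actin bundler of microvilli, stood at 102 against 6.45 CPM. Of 19 glycocalyx and lubrication genes 7 were measured, with 3 higher, 3 lower and a median of 0.83, which was -0.27 within suffix 4. Muc16, the large membrane mucin known as CA125, stood at 264 CPM in 57.6% of cells against 2.07 CPM (log2 ratio 6.99, 6.28 to 7.79). Muc16 was at 451 and 715 CPM in suffixes 1 and 2 and at 144 CPM in suffix 4, so its level differed more between suffixes than that of Krt18 or Cldn15. Has1, a hyaluronan synthase, stood at 38.3 against 6.45 CPM over all cells, but at 8.80 against 5.85 CPM in suffix 4, where it had 3 UMIs, whereas the hyaluronan receptor Cd44 was lower, at 34.5 against 143 CPM.

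The other leading genes by ratio were secreted, membrane and regulatory genes. Lgals2, a galectin that binds galactosides, stood at 540 CPM (479 to 607) in 57.6% of cells against 2.77 CPM (log2 ratio 7.61, 7.01 to 8.28), with 737, 1198 and 381 CPM in suffixes 1, 2 and 4. Prlr, the prolactin receptor, stood at 109 CPM in 41.3% of cells against 0.691 CPM (log2 ratio 7.30, 6.09 to 8.81). Ano1, a calcium-gated chloride channel, stood at 194 CPM in 56.5% of cells against 2.07 CPM (6.54, 5.81 to 7.36). All 3 were near 0 in mesenchymal cells, as were Dmkn, a secreted skin-type protein (134 CPM), the cytochrome P450 Cyp2s1 (111 CPM), the interleukin-17 receptor subunit Il17re (93.9 CPM) and Fam110c (70.9 CPM).

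Water and ion transport genes came next. Of 21 genes 9 were measured, with 5 higher, 2 lower and a median log2 ratio of 2.01. Aqp1, a water channel, stood at 1048 CPM (962 to 1140) against 44.2 CPM (log2 ratio 4.57, 4.38 to 4.76). It was at 594, 2736 and 464 CPM in suffixes 1, 2 and 4, highest in suffix 2, the suffix where the summed immune and endothelial markers were also highest (2128 and 805 CPM); the part of those markers in the Aqp1 level was not tested. Atp1b1, the β1 subunit of the sodium pump, stood at 416 against 10.6 CPM (5.29, 4.94 to 5.66).

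Among secreted defence proteins, complement was prominent. Of 19 complement genes found 13 were measured, with 6 higher, 1 lower and a median log2 ratio of 0.68. C3, the hub of the cascade, had a UMI in all 92 mesothelial cells and stood at 2058 CPM (1937 to 2185) against 409 CPM (log2 ratio 2.33, 2.23 to 2.43). Its level was 1663, 2074 and 1927 CPM in suffixes 1, 2 and 4, and 85.9% of thinned mesothelial cells still showed it, against 27.0% of thinned mesenchymal cells (50.2% before) and 2.27% of barcodes of no class (6.65% before). C2 stood at 326 against 40.8 CPM and C4b at 1073 against 311 CPM; C4b reads may be shared with its near copy C4a, so its value is uncertain. Clu, a terminal pathway inhibitor and chaperone, stood at 686 against 48.5 CPM (3.82, 3.61 to 4.03), whereas C7 of the membrane attack complex was lower, at 7.67 against 73.5 CPM.

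Chemokines mostly ran the other way. Of 32 chemokine and cytokine genes 13 were measured, with 3 higher, 7 lower and a median log2 ratio of -2.08. Cxcl14, an epithelial and stromal chemokine, had 4 mesothelial UMIs, 7.67 CPM, against 764 CPM, which is 99.7-fold lower (log2 ratio -6.64, -8.52 to -5.28). Cxcl12, which draws leukocytes through CXCR4, stood at 34.5 against 560 CPM, and the eosinophil chemokine Ccl11 had 2 UMIs against 143 CPM. The alarmin-type cytokines Il18 and Il33 were higher, Il18 at 125 against 14.2 CPM and Il33 at 153 against 45.1 CPM. Rarres2, the precursor of the chemoattractant chemerin, was among the most abundant, at 3406 CPM in 97.8% of cells against 860 CPM (log2 ratio 1.99, 1.91 to 2.06), while its receptor Cmklr1 had 1 UMI in mesothelial cells and stood at 122 CPM in mesenchymal cells. With a minimum of 50 CPM in place of 20, the median of the chemokine list turned to 0.026.

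The FGF ligands were divided between the classes. Of 15 FGF ligand and receptor genes 10 were measured, with 4 higher, 6 lower and a median log2 ratio of -1.24. Fgf1 stood at 264 CPM in 53.3% of mesothelial cells against 8.99 CPM (log2 ratio 4.88, 4.47 to 5.30), but at 451, 17.9 and 305 CPM in suffixes 1, 2 and 4, the value in suffix 2 being 1 UMI. Fgf9, which the developing pleura sends to the mesenchyme, stood at 74.7 against 6.11 CPM (3.61, 2.98 to 4.24). The mesenchymal ligands were lower: Fgf7 had 3 UMIs against 178 CPM (log2 ratio -4.95, -7.23 to -3.40) and Fgf10 had 1 UMI against 54.2 CPM (-4.82, -10.13 to -2.34). The receptor Fgfr3 had 1 UMI against 121 CPM, and the feedback inhibitor Spry1 stood at 5.75 against 125 CPM while Spry2 stood at 99.7 against 43.6 CPM. In the 16 mesothelial cells with under 3 collagen UMIs, the list's median turned to 0.056. Those cells held only 56451 UMIs, and a gene with 0 UMIs there entered at 3 UMIs. The part of this floor in the turn was not tested.

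Retinoid, Wnt and hedgehog genes showed the same division within a pathway. Aldh1a2, which makes retinoic acid, stood at 307 CPM in 66.3% of mesothelial cells against 22.2 CPM (log2 ratio 3.79, 3.47 to 4.10), with 238, 590 and 267 CPM in suffixes 1, 2 and 4. Adh1, which can supply its substrate, was lower at 30.7 against 201 CPM, as were the retinol carrier Rbp4 (72.8 against 334 CPM) and Dhrs3 (17.2 against 121 CPM), which runs the reverse step. Over 11 measured retinoid genes, 3 were higher and 3 were lower. Of 15 measured Wnt genes, 3 were higher and 5 lower: Sfrp2, a secreted Wnt modulator, stood at 180 against 2.42 CPM and Wnt9a at 55.6 against 19.6 CPM, but the receptor Fzd1 at 32.6 against 93.4 CPM. Wls, which carries Wnt proteins to the surface, stood at 241 against 115 CPM. Of 6 measured hedgehog genes, the co-receptors Gas1 (1315 against 411 CPM) and Cdon (144 against 33.0 CPM) and the transducer Smo (130 against 50.8 CPM) were higher, and the pathway's targets Hhip (11.5 against 495 CPM) and Ptch1 (30.7 against 150 CPM), both of which bind the ligand, were lower.

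Insulin-like growth factor binding proteins were split in the same way, and Igfbp5 was abundant. Igfbp5 stood at 4671 CPM (4487 to 4860) in 95.7% of cells against 466 CPM (log2 ratio 3.32, 3.25 to 3.40), and at 6961, 6671 and 3823 CPM in suffixes 1, 2 and 4. Igfbp6, which prefers IGF-II, stood at 3270 against 681 CPM (2.26, 2.18 to 2.34). Igfbp3 was lower, at 47.9 against 741 CPM (-3.95, -4.58 to -3.39), and Igfbp7 was lower, at 999 against 2921 CPM. Igfbp4 was alike, at 1501 and 1448 CPM (0.05, -0.05 to 0.16). After thinning, Igfbp5 was seen in 80.4% of mesothelial cells (95.7% before), 21.6% of mesenchymal cells (32.2% before) and 1.75% of barcodes of no class (3.03% before). Igf1 itself was at 332 against 179 CPM, but at 23.8 and 17.9 CPM in suffixes 1 and 2 and 449 CPM in suffix 4, so it was above the mesenchymal 179 CPM of all suffixes in suffix 4 and below it in suffixes 1 and 2.

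Among the remaining growth factor genes, the VEGF receptor Kdr stood at 134 against 5.99 CPM and the guidance ligand Sema3c at 383 against 78.2 CPM. Kdr is also among the endothelial markers summed above, and the part of endothelial RNA in its level was not tested. The PDGF receptor Pdgfra, a defining fibroblast gene, stood at 30.7 against 559 CPM (log2 ratio -4.19, -5.00 to -3.49). After thinning, Pdgfra was seen in 2.17% of mesothelial cells (9.78% before) and 37.0% of mesenchymal cells (63.0% before). Barcodes of no class gave 2.22% (3.70% before), close to the mesothelial share. How much of the mesothelial share is free RNA was not tested. Over 17 measured genes of the VEGF, PDGF and semaphorin families, 3 were higher and 11 lower, with a median log2 ratio of -1.55, which turned to 0.17 in the 16 collagen-poor cells. Genes with 0 UMIs in those 16 cells entered at 3 UMIs, and the part of this floor in the turn was not tested. Over 26 measured BMP and TGF-beta genes, 3 were higher and 10 lower: Tgfb2 stood at 130 against 43.6 CPM, and reached 447 CPM in suffix 2.

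Transcription factors set the classes apart in both directions. Of 24 factors of mesothelial and coelomic development 12 were measured, with 6 higher, 3 lower and a median log2 ratio of 1.00. Bnc1 (basonuclin), a zinc finger factor, stood at 117 CPM in 42.4% of cells against 0.691 CPM (log2 ratio 7.40, 6.20 to 8.90), and its relative Bnc2 at 109 against 22.8 CPM. Sox6 stood at 80.5 against 5.65 CPM and Gata6 at 240 against 83.6 CPM (1.52, 1.23 to 1.79). Osr1 stood at 404 against 149 CPM, but at 641, 0 and 516 CPM in suffixes 1, 2 and 4, so it was not seen in suffix 2. Tcf21, which marks lung fibroblasts and their precursors, had 0 UMIs in 92 mesothelial cells against 319 CPM, at least 55.5-fold lower with the mesothelial class set to 3 UMIs. Of 13 measured lung mesenchymal factors none was higher and 9 were lower, with a median of -2.08: Meox2 had 3 UMIs against 159 CPM, and Tbx4, after which the Cre of these mice is named, stood at 15.3 against 57.3 CPM (log2 ratio -1.90, -3.12 to -0.91). After thinning, Tbx4 was seen in 1.09% of mesothelial cells (7.61% before) and 6.13% of mesenchymal cells (16.4% before), against 0.528% of barcodes of no class (1.11% before). The mesothelial share there is 1 cell, and at 2000 UMIs the shares were 5.95% of mesothelial cells, 10.4% of mesenchymal cells and 0.760% of barcodes of no class. These shares do not tell how many mesothelial cells carried tdTomato.

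**Figure D3:**
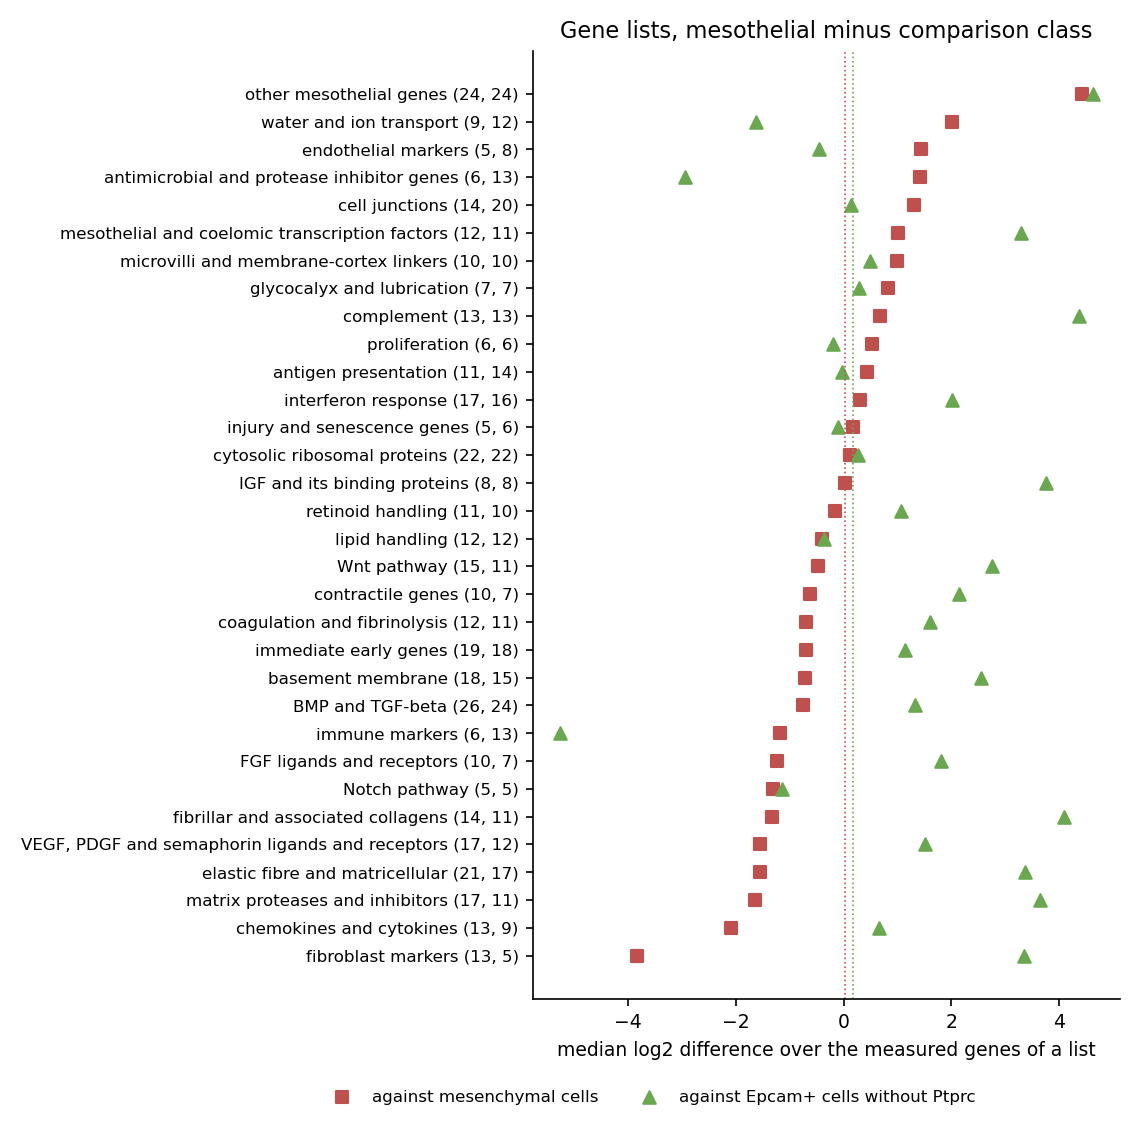
Median log2 difference (x axis) over the measured genes of each gene list (y axis, with the number measured against mesenchymal and against Ptprc-free Epcam+ cells in brackets), mesothelial minus comparison class; dotted lines are the medians over all genes compared. Matrix lists lie below 0 against mesenchymal cells and above 0 against epithelial cells (fibrillar and associated collagens -1.33 and 4.09), whereas other mesothelial genes lie above 0 in both (4.44 and 4.63).

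Matrix genes were lower than in mesenchymal cells but far from absent. Of 18 fibrillar and associated collagen genes 14 were measured, with 1 higher, 9 lower and a median log2 ratio of -1.33, and the medians within suffixes 1, 2 and 4 were -0.94, -0.73 and -1.12. The class was defined by Col1a2 and Col3a1, so their own ratios are no finding: mesothelial cells held 562 and 1240 CPM. The same choice can raise genes expressed along with Col1a2 and Col3a1 in the mesenchymal class, so the list values are a description. Col1a1, the other chain of type I collagen, stood at 410 against 1122 CPM (log2 ratio -1.45, -1.65 to -1.26), with 570 and 528 CPM in suffixes 1 and 4 and 35.8 CPM in suffix 2. Decorin (Dcn), a small proteoglycan of collagen fibrils, ran against the list, at 3866 CPM in 100% of mesothelial cells and 2286 CPM in mesenchymal cells (0.76, 0.69 to 0.82). After thinning, Dcn was seen in 90.2% of mesothelial cells (100% before), 48.3% of mesenchymal cells (61.7% before) and 2.19% of barcodes of no class (4.99% before). Dcn did not reach 2-fold. The gene of this list that was higher was fibromodulin (Fmod), at 123 against 32.1 CPM, whereas biglycan (Bgn) at 458 against 2013 CPM and lumican (Lum) at 19.2 against 272 CPM were lower.

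Elastic fibre genes were lower in every suffix examined. Of 26 elastic fibre and matricellular genes 21 were measured, with 1 higher, 15 lower and a median log2 ratio of -1.56, and the medians within suffixes 1, 2 and 4 were -1.37, -1.62 and -1.78. Mfap4, an elastic microfibril protein, stood at 38.3 against 1119 CPM (log2 ratio -4.87, -5.58 to -4.24) and elastin (Eln) at 335 against 1115 CPM. Fbln2 was the gene that ran against them, at 123 against 49.5 CPM. Among 18 measured basement membrane genes 3 were higher and 8 lower: Nid2 (105 against 5.07 CPM), Fras1 (103 against 3.34 CPM) and Col4a4 (72.8 against 9.22 CPM) were higher, and Col4a1 (53.7 against 199 CPM) and Col15a1 (1 UMI against 44.1 CPM) were lower. Of 17 measured matrix proteases and inhibitors 3 were higher and 9 lower. Mmp3 (stromelysin) had 1 UMI against 279 CPM, Mmp2 stood at 9.58 against 310 CPM and the inhibitor Timp3 at 272 against 2495 CPM, while the aggrecanase Adamts5 stood at 314 against 103 CPM.

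The genes with the lowest ratios by the naming rule were lung fibroblast and myofibroblast genes with almost no mesothelial RNA. Wisp2 had 1 UMI against 204 CPM (log2 ratio -6.73, -12.04 to -4.25), the oxidase gene Nox4 1 UMI against 176 CPM, the amino acid carrier Slc36a2 1 UMI against 145 CPM and Igsf10 1 UMI against 99.0 CPM. Col13a1, a collagen that marks alveolar fibroblasts, had 1 UMI against 142 CPM, and Dpep1 had 4 UMIs against 368 CPM, 48.0-fold lower. Of 10 measured contractile genes none was higher and 4 were lower: Acta2, the actin whose reporter was used for sorting, stood at 34.5 against 136 CPM (-1.98, -2.74 to -1.31) and the myosin kinase Mylk at 42.2 against 557 CPM. Of 13 measured fibroblast markers 11 were lower and none higher, against a class that was itself chosen by collagen UMIs. Of 5 measured integrins, Itga3, a laminin receptor of epithelia, stood at 63.2 against 1.84 CPM, and Itga8 of the mesenchyme at 5.75 against 270 CPM.

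Immune-interface genes gave smaller differences. Of 11 measured antigen presentation genes 5 were higher and none lower: the class I gene H2-K1 stood at 1062 against 288 CPM (log2 ratio 1.88, 1.75 to 2.02) in 91.3% of cells. Of 17 measured interferon response genes 6 were higher and 3 lower, with a median of 0.31: Oasl2 stood at 247 against 27.3 CPM and Gbp2 at 205 against 27.1 CPM, while Ifitm1 stood at 26.8 against 166 CPM. Cytosolic ribosomal protein genes served as a comparison, with none of 22 past 2-fold and a median of 0.12. The proliferation genes Mki67 and Top2a had 0 UMIs in all 92 cells, which allows up to 3 UMIs in the class, and of 19 measured immediate early genes 3 were higher and 7 lower.

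Epithelial cells gave a different contrast, and most of them were not clean. Of the 595 Epcam-bearing barcodes, 474 (79.7%) also had a Ptprc UMI, so values against the 121 without Ptprc (median 4044 UMIs) are given beside those against all. Immune markers still summed to 15961 CPM in those 121, against 19597 CPM in all 595, so lack of Ptprc did not free them of immune RNA. Of 6443 genes, 1310 (20.3%) were higher in mesothelial than in all epithelial cells and 1150 (17.8%) were lower; scaling by trimmed means in place of totals moved the higher share of the calls from 53.3% to 42.6% (leaving out the collagen-bearing cells moved it to 67.2%) and the median over all genes from 0.09 to -0.17. Against the Ptprc-free cells, 1298 of 6453 (20.1%) were higher and 950 (14.7%) were lower, with a median of 0.18 over all genes.

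Keratin levels were closer than in the mesenchymal contrast. Krt18 was at 149 CPM in Ptprc-free epithelial cells against 243 CPM in mesothelial cells (log2 ratio 0.71), and Krt8 at 191 against 88.2 CPM (-1.12), while against all epithelial cells the ratios were 2.88 and 1.24. Krt8 thus lay below the Ptprc-free cells and above the whole class. Of the other mesothelial genes, 24 of 24 measured were higher against all epithelial cells, with a median of 6.57, and 22 of 24 against Ptprc-free cells, with a median of 4.63. A gene that passes the minimum through mesothelial cells alone has to be higher, so these counts are a description. Lgals2 led with log2 ratios of 9.26 and 7.37, followed by Pkhd1l1 (8.68 and 6.21), Crym (8.06 and 5.59), Cpe, a carboxypeptidase of secretory granules (8.01 and 6.53), and Nkain4 (7.92 and 6.32). Plac9b (7.87 and 3.81), Ildr2 (7.87 and 5.40), Muc16 (7.81 and 7.34), Dcn (7.70 and 6.75) and Ces2g (7.66 and 3.60) came next, of which Plac9b and Ces2g have near copies and are uncertain. The lowest by the same rule were genes of macrophages and other leukocytes with 1 to 3 mesothelial UMIs, Abcg1 (-8.10), Ear1 (-7.81), Ear2 (-7.31), Coro1a (-7.29) and Atp6v0d2 (-7.27), with Ear1 and Ear2 uncertain for the same reason, and they stood at 68.7 to 330 CPM even in the Ptprc-free epithelial cells.

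Matrix and complement genes were higher in mesothelial than in epithelial cells. All 11 collagen-list genes measured against Ptprc-free cells were higher (median 4.09) and all 10 against the whole class (median 4.65), and for complement these were 10 of 13 (median 4.37) and 11 of 13 (median 4.62). For the IGF list they were 7 of 8 (median 3.77) and 7 of 7 (median 4.41), and for basement membrane 11 of 15 (median 2.55) and 12 of 14 (median 4.39). Many of these genes pass the minimum through mesothelial cells alone and then have to be higher, so these counts are descriptions too. The water and ion transport list depended on the comparison cells: 3 of 12 were higher and 7 lower against Ptprc-free cells (median -1.62), but 4 of 10 higher and 3 lower against the whole class (median 0.36). Atp1b1 stood at 416 CPM against 445 CPM in Ptprc-free cells and 90.3 CPM in the whole class. Junction genes were mixed, with 5 of 20 higher and 7 lower against Ptprc-free cells and 7 of 17 higher and 3 lower against the whole class. Against Ptprc-free cells, Cldn15 was higher (402 against 6.54 CPM) and Cldn3 lower (44.1 against 204 CPM).

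Keratin and collagen RNA occurred in the same cells. Of 92 mesothelial cells, 66 (71.7%) had a UMI of Krt7, Krt8 or Krt18, 86 had a UMI of Col1a2 or Col3a1, and 62 (67.4%) had both. Of 2584 mesenchymal cells, 12 (0.464%) had a keratin UMI, and of 121 Ptprc-free epithelial cells, 6 (4.96%) had both. The median mesothelial cell held 1 keratin and 7 collagen UMIs. Scrublet, a doublet caller, marked 2 of the mesothelial cells and 75 barcodes (0.750%) in all.

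**Figure D4:**
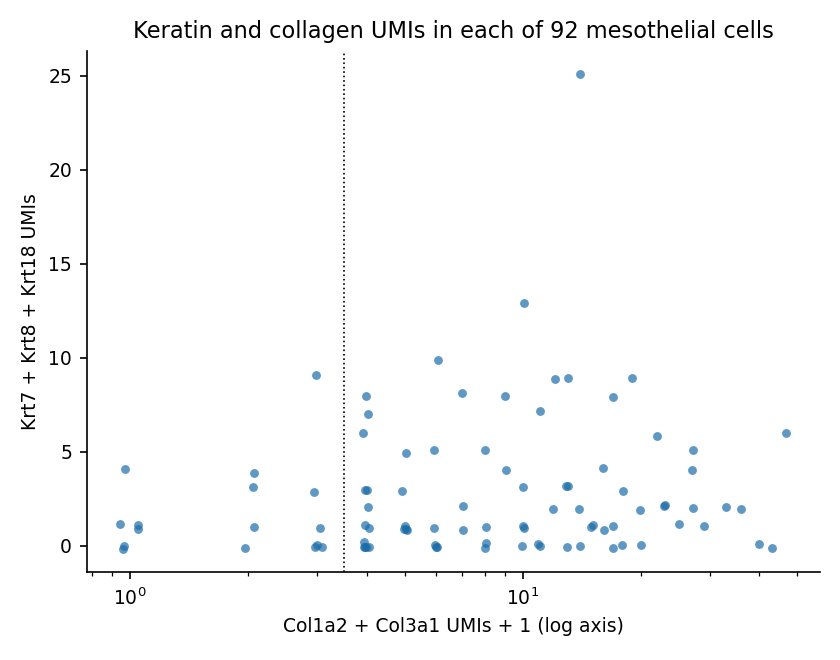
UMIs of Krt7, Krt8 and Krt18 (y axis) against UMIs of Col1a2 and Col3a1 plus 1 (x axis, logarithmic) in each of 92 mesothelial cells, with small sideways offsets so that points do not hide each other; the dotted line divides 16 cells under 3 collagen UMIs from 76 at or above. Keratin UMIs occur across the whole range of collagen UMIs, and 62 cells have both.

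Collagen content varied among mesothelial cells. At the threshold that defined mesenchymal cells, 76 of 92 had 3 or more Col1a2 and Col3a1 UMIs and 16 had fewer, with median depths of 5617 and 3066.5 UMIs, so depth moves with this split. The 16 collagen-poor cells held Slpi at 5917 against 658 CPM, Gpc3 at 2852 against 1008 CPM and Lyz2 at 1612 against 159 CPM. They held less Osr1 (88.6 against 443 CPM), Igf1 (53.1 against 365 CPM) and Igfbp4 (319 against 1644 CPM). Suffix moves with it too: 6 of the 12 mesothelial cells of suffix 2 were collagen-poor, against 6 of the 58 of suffix 4.

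Slpi, a secreted inhibitor of leukocyte elastase, was uneven among the mesothelial cells. It had 640 UMIs, 1227 CPM, but in only 41.3% of cells: 54 cells had none, 12 had 1, and 14 had 10 or more. It stood at 380, 3308 and 290 CPM in suffixes 1, 2 and 4. A division of the 92 cells into 26 with 2 or more Slpi UMIs and 66 with fewer was chosen after these values were seen and is a description. Median depths were close, at 4752.5 and 5101 UMIs, and the median number of rule genes was 7 in both. The 26 cells came from suffixes 1 to 6 as 3, 9, 2, 7, 3 and 2, and the 66 as 7, 3, 3, 51, 0 and 2, so suffix 4 held most of the 66 cells and 7 of the 26, and Slpi and suffix cannot be told apart over all cells.

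Of 6394 genes compared between these cells, 1011 (15.8%) were higher with Slpi, meaning 2 or more Slpi UMIs, and 473 (7.40%) lower. Among the genes higher with Slpi were Msln at 769 against 149 CPM, Gpm6a at 1690 against 717 CPM, Aqp1 at 2167 against 493 CPM, Muc16 at 445 against 175 CPM and Gpc3, a surface proteoglycan, at 2280 against 677 CPM. Fxyd3, a regulator of the sodium pump, stood at 532 against 60.2 CPM and the prostaglandin carrier Slco2a1 at 451 against 63.1 CPM. Fxyd3 had a UMI in 57.7% of the 26 cells and 10.6% of the 66, and Slco2a1 in 57.7% and 13.6%. The cell richest in each gene held 27 of 113 Fxyd3 UMIs, 26 of 100 Slco2a1 UMIs and 40 of 185 Msln UMIs of all 92 cells. Lower with Slpi were Lgals1 (653 against 4253 CPM), the lysophosphatidic acid enzyme Enpp2 (57.8 against 344 CPM), Osr1 (110 against 551 CPM), Igfbp4 (462 against 2016 CPM), Col1a1 (127 against 551 CPM) and Fgf1 (92.5 against 350 CPM). Upk3b (log2 ratio 0.41), C3 (0.17) and Krt18 (-0.22) differed little.

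The division was also looked at inside suffix 4, which held 7 cells with 2 or more Slpi UMIs and 51 with fewer. There Msln stood at 619 against 108 CPM, Gpm6a at 1460 against 632 CPM, Lgals1 at 752 against 4299 CPM and Fgf1 at 66.4 against 342 CPM, in the direction of the whole. The Fgf1 value with Slpi is 3 UMIs. Other genes were closer within the suffix than over all cells: Gpc3 (686 against 649 CPM), Aqp1 (686 against 430 CPM), Muc16 (199 against 135 CPM) and Col1a1 (332 against 558 CPM) were under 2-fold there, and Fxyd3 stood at 133 against 57.5 CPM. Endothelial markers summed to 1017 CPM in all cells with 2 or more Slpi UMIs and 192 CPM in those with fewer, immune markers to 827 and 310 CPM, and fibroblast markers to 4358 and 7636 CPM. In 69 mesothelial cells, immune, epithelial and endothelial markers together stayed at or under 1000 CPM. Of these cells 13 had 2 or more Slpi UMIs and 56 had fewer, with Msln at 505 against 117 CPM and Lgals1 at 1229 against 4502 CPM.

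**Figure D5:**
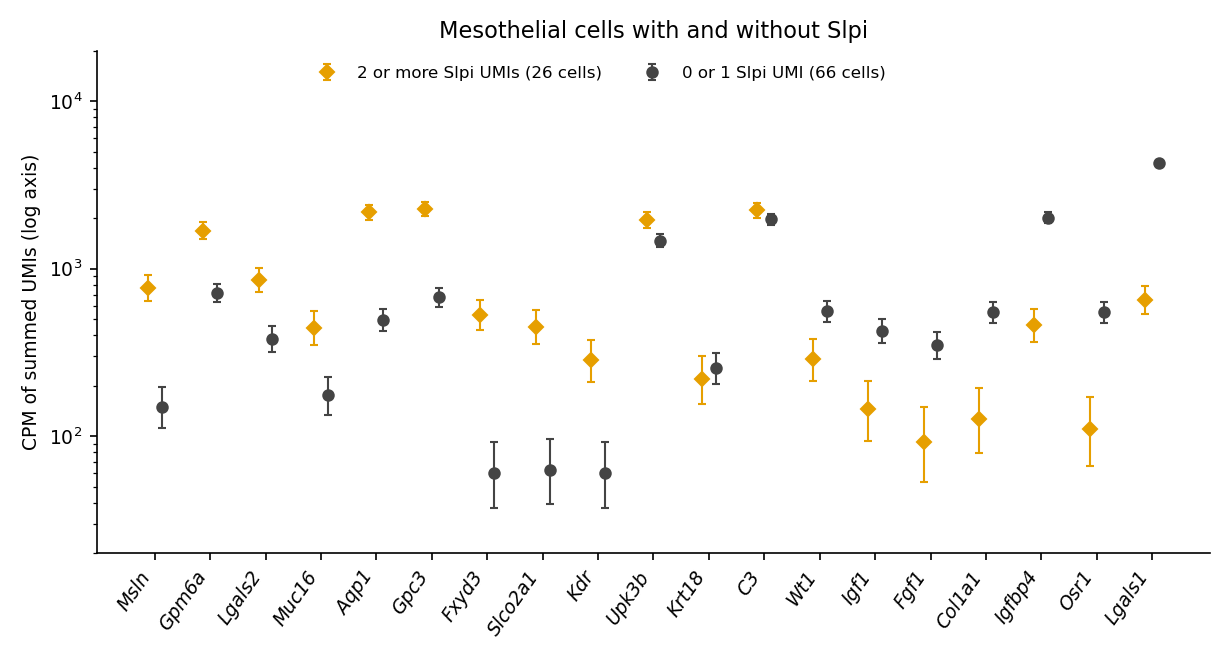
CPM of summed UMIs (y axis, logarithmic) of 19 genes (x axis) in the 26 mesothelial cells with 2 or more Slpi UMIs and the 66 with fewer; bars are 95% Poisson intervals of counting error. Msln (769 against 149 CPM) and Fxyd3 (532 against 60.2 CPM) are higher with Slpi, Lgals1 (653 against 4253 CPM) and Osr1 (110 against 551 CPM) are lower, and C3 differs little.

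The sequence around RefSeq start sites of the leading genes was read for short letter strings bound by factors that are active in mesothelium. The set was the 8 rule genes and the 15 with the largest ratio to mesenchymal cells, of which 17 had a RefSeq window from 250 bases before to 50 bases after a start site (build GRCm38.p6), and the strings were chosen after the expression values were seen. GGAATG on either strand, bound by TEAD factors, occurred for 6 of the 17 genes (35.3%), against 14.7% of all 32851 windows. The EGR and WT1 string GCGTGGG occurred for 0 genes against 5.04% of windows, and the KLF string CACGCCC for 2 genes against 8.44%. Of the strings of the GATA factors, AGATAA occurred for 2 genes (11.8%) against 11.2% of windows and the other form, TGATAA, for 0 against 9.05%. A gene counts when any of its windows holds the string, so its share and the share of windows are not like for like. The stretches before the start site that hold GGAATG or its complement CATTCC are shown because they belong to mesothelial genes named above, with the string in capitals, as RefSeq gives them 5′ to 3′ along the gene.
Upk3b: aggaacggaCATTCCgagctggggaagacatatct
Lrrn4: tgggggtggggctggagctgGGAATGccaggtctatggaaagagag
Gpm6a: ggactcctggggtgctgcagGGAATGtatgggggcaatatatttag
Cldn15: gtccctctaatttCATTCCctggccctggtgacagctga
Il17re: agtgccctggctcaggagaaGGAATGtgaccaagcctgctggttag
Fam110c: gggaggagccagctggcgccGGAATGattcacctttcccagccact
They lie at chr5:136038246-136038280 (plus strand) for Upk3b, chr2:132881033-132881078 (minus strand) for Lrrn4, chr8:54779289-54779334 (plus strand) for Gpm6a, chr5:136967619-136967657 (plus strand) for Cldn15, chr6:113458692-113458737 (plus strand) for Il17re and chr12:31073844-31073889 (plus strand) for Fam110c. The string starts 241, 196, 125, 237, 59 and 104 bases before the start site in that order. The Gpm6a stretch lies before a start site far upstream of GENCODE's gene start at chr8:54954843. The other Gpm6a window, at chr8:54954478-54954777, held no match, and which start site the cells used was not tested. A match shows letters, not binding.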

How the data were processed

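The deposited table holds raw UMI counts of 27998 genes in 10410 barcodes; per the submitters' processing notes the authors used Cell Ranger 1.3.0, STAR 2.5.1 and the mouse build mm10. The sources used here do not state how cells were called. The libraries were 10x Single Cell 3′ v2, per the labels' protocols. The members and gene lists were chosen with earlier results of these data known.

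Of the barcodes, 318 had under 500 genes and 105 had over 10% mitochondrial UMIs. Counts were summed per class and divided by the class total. A class at 0 UMIs entered a ratio at 3 UMIs. In ratios within a suffix, and in means over suffixes, any level under 3 UMIs of the smaller class total was raised to that floor. Intervals are exact Poisson (CPM), Clopper-Pearson (shares) and conditional binomial (ratios) intervals at 95%, all covering counting error only. No test was run, since 1 pooled table has no replicate. Genes were compared when the mean CPM of both classes was 20 or more, leaving out rule and class genes, and called at 2-fold. Named genes were the 15 highest and 10 lowest ratios to mesenchymal cells and the 10 and 5 to epithelial cells, among genes seen in 25% or more of the cells of the higher class with the same direction in suffixes 1, 2 and 4. To these were added the 4 largest ratios of each list, the rule genes, and list genes whose role is given as background. Of 753 list symbols 750 were in the table; some genes are not reported here. Doublets were called with Scrublet in scanpy 1.11.5 per suffix and kept, with their removal as an alternative; at 0.750% of barcodes the caller marked few. Cells were thinned to 1000 UMIs without replacement. The scripts (Python 3.11.15, numpy 2.4.6, scipy 1.17.1, pandas 2.3.3) were tested on simulated counts with known changes. Gene positions are GENCODE's on GRCm38, and promoter letters RefSeq's on GRCm38.p6. Alternatives covered the rule, cell filter, doublets, collagen-bearing cells, Ptprc in the comparison cells, suffixes, cell weights, minimum level, fold, scaling and thinning depth.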

Additional observations from a re-analysis of the deposited data

How the results depend on the processing

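No paired analysis was possible because each gate and day has 1 sample and no barcode suffix is tied to a sample. Choices were changed singly, except that the stricter cell filter changed the gene minimum and the mitochondrial limit together; the setting without cells over 1000 CPM of immune, epithelial or endothelial markers was added after seeing the data. Where a change follows from the setting's construction (fewer genes, cells or UMIs) it is not marked; for the others the cause was not tested.

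The share of mesothelial cells was 1.14% with 2 or more rule genes, 1.26% with 1000 genes and 5% mitochondrial UMIs, and 0.488% without suffix 4, where 70.6% had 3 or more collagen UMIs. Genes higher and lower against mesenchymal cells numbered 1329 and 1588 at a minimum of 5 CPM, 314 and 360 at 50 CPM, 378 and 437 at 3-fold, and 317 and 324 as the mean over suffixes; higher genes numbered 1580 without collagen-bearing cells. Against epithelial cells they numbered 2612 and 2135, 577 and 532, and 665 and 599 under the first, second and last of these, and 737 were lower at 3-fold. The median of other mesothelial genes was 5.40 without collagen-bearing cells, 2.14 as the mean over suffixes and 3.98 without cells high in other markers. Means over suffixes use the suffix floor given above, which limits large ratios. Thinned to 500 and 2000 UMIs, Krt18 was seen in 8.70% and 35.7% of mesothelial cells and Nkain4 in 27.2% and 65.5%, and Igfbp5 in 92.9% at 2000.

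Against mesenchymal cells these log2 values, all 2-fold or more in the report, changed sign. Without collagen-bearing cells: mesothelial markers and Cxcl13 -0.56, FGF genes 0.056, VEGF, PDGF and semaphorin genes 0.17, immune markers 1.32, epithelial markers 0.65, Psmb8 -0.82 and Tyrobp 0.71. That setting left 16 cells with 56451 UMIs, where a gene at 0 UMIs entered at 3 UMIs. Epithelial markers were 0.025 under the stricter cell filter, and chemokines 0.026 at 50 CPM. Immune markers and Tyrobp were both 0.10 without Ptprc-bearing comparison cells, and 0.28 and 0.0094 as means over cells. Tyrobp was 0.30 without suffix 4. Endothelial markers were -0.34 and Egfl7 -0.40 as means over suffixes, and Egfl7 was -1.43 without cells high in other markers. Against epithelial cells, keratins were -0.093, Cyp2s1 -0.10 and Krt8 -1.12 without Ptprc-bearing cells. Antimicrobial genes were 0.49 and lipid genes 0.10 without collagen-bearing cells, antimicrobial genes 1.16 without suffix 4 and 0.57 at 50 CPM, and coagulation genes -1.20 at 50 CPM. Of 1756 values of named genes against mesenchymal cells over all alternatives, 8 turned a difference of 2-fold or more to the other sign and 364 moved beyond their interval; of 308 against epithelial cells, 2 and 66. Among results under 2-fold in the report, the sign changed in at least 1 alternative for 7 of 17 genes and 9 of 21 list medians against mesenchymal cells and for 8 of 13 list medians against epithelial cells. Against mesenchymal cells the glycocalyx median ran from -1.13 to 1.64, the Wnt median from -0.92 to 0.53, the IGF median from -0.71 to 0.20 and the hedgehog median from -0.80 to 0.30, and against epithelial cells the water and ion transport median ran from -1.62 to 2.29.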

Other observations

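Lists not described above gave mixed values against mesenchymal cells. Of 12 measured coagulation and fibrinolysis genes 2 were higher and 4 lower: Serpine2, an inhibitor of thrombin and plasminogen activators, stood at 19.2 against 231 CPM and Plaur, the urokinase receptor, at 46.0 against 12.1 CPM. Of 5 measured Notch genes none was higher and 3 were lower, with the target Heyl at 3.83 against 81.5 CPM and Hes1 at 46.0 against 264 CPM. The prostaglandin synthase Ptgs1 stood at 161 against 18.8 CPM and lipoprotein lipase (Lpl) at 11.5 against 130 CPM, among 12 measured lipid genes with 3 higher and 3 lower. Of 3 measured genes of epithelial-mesenchymal transition, the repressor Zeb2 stood at 55.6 against 393 CPM, while vimentin (Vim) was close, at 1447 and 1145 CPM.

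Some genes named for other cell types were present at levels above those in mesenchymal cells. Esam, an adhesion molecule best known from endothelium, stood at 155 CPM in 46 of 92 mesothelial cells against 4.03 CPM, and the macrophage receptor gene Csf1r at 36.4 against 6.45 CPM. The defining endothelial genes Pecam1 and Cdh5 stood at 24.9 and 23.0 CPM. Esam was at 261, 179 and 114 CPM in suffixes 1, 2 and 4, where the endothelial markers summed to 475, 805 and 208 CPM. Esam is itself on that marker list, so these sums include it. The part of endothelial RNA in the Esam level was not tested.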
